A study of Mus musculus with 6 samples.

Results

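The 6 antigen receptor loci of the mouse lie on 5 different chromosomes, and the contacts described here are those that join a pair of them across chromosomes (contacts in trans) in B-cell progenitors with and without the transcription factor Erg. Members were all pairs of bins of about 100 kb, on different chromosomes, that fall in 2 of the following loci of mm10: Igh (chr12:113254830-116010093), Igk (chr6:67555497-70726966), Igl (chr16:19061618-19260859), Tcra/Tcrd (chr14:52427928-54224206), Tcrb (chr6:40891229-41558452) and Tcrg (chr13:19178024-19352756). Igk and Tcrb share chromosome 6, which leaves 14 of 15 possible locus pairs. Of 3062 member bin pairs, 2758 remained after bins of very low or high coverage were dropped, of 264043864 trans pairs of kept autosomal bins in all. The loss fell on Tcra/Tcrd, where 15 of 19 bins were kept, while every bin of the other 5 loci was kept.

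The data came from in situ Hi-C, an assay that joins pieces of chromatin found side by side in intact nuclei and reads both partners of each junction, 1 contact per read pair. Marrow freed of mature lineages was grown on OP9 stroma, which feeds lymphoid progenitors, for 8 days in SCF, IL7 and FL, and the B220+ cells were taken, B220 being a surface protein of B-lineage cells. All mice were on the background labelled C56BL/6. The Erg KO libraries (Rag1CreT/+;Erg fl/fl, 2 libraries) came from mice in which a Rag1-driven Cre deletes both floxed Erg alleles in lymphoid progenitors, and the CreT control (Rag1CreT/+, 2 libraries) had the Cre and unfloxed Erg. The second control, Erg fl/fl (Rag1Cre+/+;Erg fl/fl, 2 libraries), had floxed alleles and no Cre. Replicate 2 of Erg KO and of the Erg fl/fl control was male, and the other 4 libraries were female. The study treats the Erg KO cells as pre-proB cells and the control cells as proB cells, so a difference in developmental stage and loss of Erg cannot be told apart here. The methods call the 2 libraries of a genotype biological duplicates, and since the labels do not say whether these were separate mice or cultures, p-values measure the spread between these libraries only. The libraries held 29014581 to 68085468 read pairs, and the share of autosomal read pairs in trans was 32.3% and 34.6% in Erg KO against 21.6% to 26.8% in the controls.

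Antigen receptor genes are put together in developing lymphocytes by V(D)J recombination, in which the Rag1 and Rag2 proteins cut next to V, D and J gene segments and the ends are joined. B-lineage cells assemble the immunoglobulin heavy chain at Igh and the light chains at Igk and Igl, and T-lineage cells assemble the T-cell receptor chains at Tcra/Tcrd, Tcrb and Tcrg. The cuts fall at recombination signal sequences, each made of a heptamer, a spacer of 12 or 23 bases and a nonamer, and a 12 spacer pairs with a 23 spacer. The question put to the data was whether these loci, which share that machinery, meet across chromosomes more often than their coverage gives, and whether this differs in Erg KO.

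One J segment with its signal is shown for each locus, since the shared signal is what defines the loci as a group. The segment shown is the first of those with the most matches to the heptamer CACTGTG and the nonamer GGTTTTTGT, so it is not typical of its locus. Each line gives 60 bases on the coding strand, read from the GRCm38.p6 genome of RefSeq at positions of the GENCODE M21 annotation, with the nonamer and then the heptamer in capitals and the start of the J segment at the right. The segments are Ighj3 (chr12:113429118-113429177, minus strand), Igkj1 (chr6:70722517-70722576, plus strand), Iglj1 (chr16:19063248-19063307, minus strand), Traj34 (chr14:54184654-54184713, plus strand), Trbj2-7 (chr6:41543765-41543824, plus strand) and Trgj1 (chr13:19210298-19210357, plus strand).
Ighj3: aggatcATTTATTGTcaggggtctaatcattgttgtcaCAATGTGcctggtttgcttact
Igkj1: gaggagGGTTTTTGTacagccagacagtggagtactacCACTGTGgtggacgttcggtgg
Iglj1: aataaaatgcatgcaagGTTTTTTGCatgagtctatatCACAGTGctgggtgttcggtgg
Traj34: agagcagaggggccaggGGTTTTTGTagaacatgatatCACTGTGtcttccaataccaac
Trbj2-7: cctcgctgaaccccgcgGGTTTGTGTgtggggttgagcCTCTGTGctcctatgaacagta
Trgj1: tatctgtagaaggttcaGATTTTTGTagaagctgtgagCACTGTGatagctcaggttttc
The Igh and Igk segments have a spacer of 23 bases and the other 4 have a spacer of 12. The heptamer CACTGTG stands unchanged at Igkj1, Traj34 and Trgj1, and that of Ighj3, Iglj1 and Trbj2-7 matches it in 6 of 7 bases. Among all J segments examined it stood unchanged at 0 of 4 in Igh, 3 of 5 in Igk and 1 of 5 in Igl. In the T-cell receptor loci it did so at 16 of 53 in Tcra/Tcrd, 1 of 13 in Tcrb and 3 of 4 in Tcrg. The heptamer on its own did not set the loci apart from the genome: counted on both strands as CACTGTG or CACAGTG, it occurred 15.7 (Igl) to 28.7 (Tcra/Tcrd) times per 100 kb, against 26.8 over all kept autosomal bins. The bins are cut at GATC, and the loci held 241 (Tcrg) to 304 (Igl) such sites per 100 kb, against 250 over those bins. A bin of 100 kb holds many segments, so no contact below could be given to a single signal.

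Contacts between the loci were few. The 6 libraries together held 763 read pairs over the 2758 member bin pairs, and 2108 bin pairs (76.4%) had none. The highest count was 3, reached by 13 bin pairs, so no single bin pair was read as a contact. Those 13 fell in Igh to Igk and Igh to Tcra/Tcrd with 5 each, and in Igk to Igl, Igl to Tcra/Tcrd and Tcrb to Tcrg with 1 each. One Igh bin, chr12:114699796-114799964, which holds 10 VH segments from Ighv1-19-1 to Ighv1-26, took part in 4 of them, a feature named after its values were seen.

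Counts were summed per locus pair and library and divided by an expectation, the product of the trans coverage of both loci scaled to the trans total of the library, so that 1 is what the coverage alone gives. Over all 14 locus pairs and all libraries there were 763 read pairs for 650.5 expected, a ratio of 1.17 with a 95% exact Poisson interval of 1.09 to 1.26. Intervals here cover counting error only. By library the ratio was 1.05 and 0.991 in Erg KO, 1.45 and 1.20 in the CreT control and 1.30 and 1.09 in the Erg fl/fl control. Both Erg KO libraries lay below all 4 controls, with the nearest control, Erg fl/fl control replicate 2, at 64 read pairs. Divided by the ratio of the flanks of the loci, the 6 libraries overlapped (log2 difference -0.22, exact permutation p = 0.200). The summed ratio was 1.02 (0.902 to 1.15) in Erg KO and 1.28 (1.17 to 1.40) in the controls. On the log2 scale, with 0.5 added to count and expectation, Erg KO minus controls was -0.30, which did not pass an exact permutation test over libraries (two-sided p = 0.133). With 2 libraries against 4 the smallest p this test can give is 0.0667, so no difference of single values could pass 0.05.

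Contacts of an immunoglobulin locus with another immunoglobulin locus (3 pairs) had the highest ratio of the 3 classes. It was 1.28 over all libraries (329 read pairs, interval 1.14 to 1.42), with 1.21 and 1.05 in Erg KO, 1.55 and 1.37 in the CreT control and 1.45 and 1.01 in the Erg fl/fl control. Erg fl/fl control replicate 2 lay below both Erg KO libraries, so the groups overlapped, and the log2 difference of -0.24 gave an exact permutation p = 0.400. Contacts between an immunoglobulin and a T-cell receptor locus (8 pairs, 387 read pairs) came to 1.12 (1.01 to 1.23). They stood at 0.929 and 1.02 in Erg KO, 1.34 and 1.16 in the CreT control and 1.22 and 1.10 in the Erg fl/fl control. Here the groups did not overlap, and the log2 difference of -0.30 gave the smallest exact permutation p the design allows, 0.0667. The 3 pairs of T-cell receptor loci held 47 read pairs for 46.8 expected, with library ratios from 0.486 (Erg KO replicate 2) to 1.78 (CreT control replicate 1), and the groups overlapped (-0.58, exact permutation p = 0.400). The differences between the classes were not tested.

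**Figure D1:**
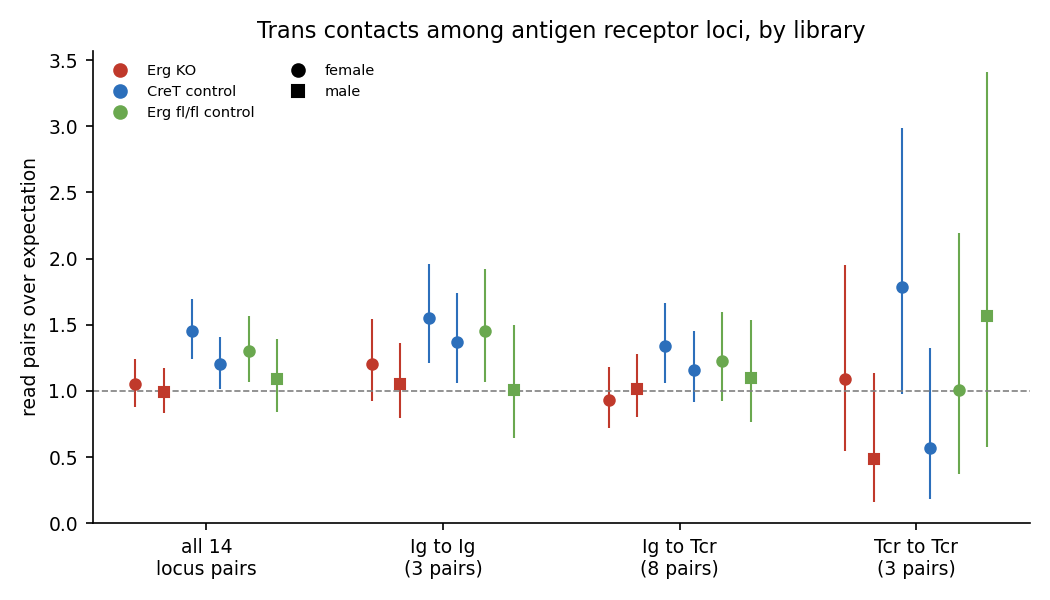
Read pairs over the expectation from trans coverage (y axis, no unit) for all 14 locus pairs and the 3 classes, 1 point per library with its 95% exact Poisson interval, coloured by genotype and shaped by sex. Both Erg KO libraries lie below the 4 controls over all pairs (1.05 and 0.991 against 1.09 to 1.45) and for Ig to Tcr (0.929 and 1.02 against 1.10 to 1.34), while the other 2 classes overlap.

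Another 2 measures, of whole libraries, moved with the genotype in the same way. The spread of the ratio over 286416 trans block pairs of 30 bins, after counting error is taken out, was 0.328 and 0.312 in Erg KO and 0.410 to 0.431 in the controls, so trans contacts departed less from their coverage throughout the Erg KO libraries. The share of contacts in trans was also higher in Erg KO at every locus, for example 39.2% and 40.4% at Igh against 27.7% to 33.4% in the controls, and 26.9% and 30.3% at Igk against 21.7% to 24.0%. Over all kept autosomal bins it was 33.9% and 36.2% against 22.8% to 28.3%. At all 6 loci the groups did not overlap in this share, each with an exact permutation p = 0.0667, as also over all bins. Their part in the lower ratio of Erg KO was not tested. With each library's excess divided by its own spread, Erg KO minus controls was -0.56 in units of that spread (exact permutation p = 0.133). The Erg KO ratios, 1.05 and 0.991, had almost no excess to divide, so this value cannot decide the part of the spread.

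The loci were also set against windows of the same size near them. For each locus pair, 1 locus was kept and the other replaced by a window of the same number of bins moved along its chromosome in steps of about 1 Mb, up to 10 Mb to either side. Over all libraries the ratio was 1.17 at the loci and had a median of 0.953 over the 20 shifts, with a range of 0.821 to 1.05. Each of the 14 pairs gives 2 such windows, 28 in all, and a window that overlapped the locus or ran off the chromosome was left out, so that 14 windows remained at 1 Mb to either side, 19 to 24 at 2 and 3 Mb, 28 at -4 to -10 Mb and 23 at 4 to 10 Mb. Most shifted values thus cover fewer pairs than the value at the loci. None of the 20 shifts reached that value, and the 7 shifts with all 28 windows ran from 0.863 to 0.995. In the controls the loci stood at 1.28 against a median of 0.923 and a highest shifted value of 1.11, and again none of 20 was as high. In Erg KO the loci stood at 1.02 against a median of 0.953, and 4 of the 20 shifts were as high, among them the shifts of -9 and -10 Mb with all windows. Neighbouring shifts share bins and all shifts share the kept locus, so these counts are a description without a test.

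**Figure D2:**
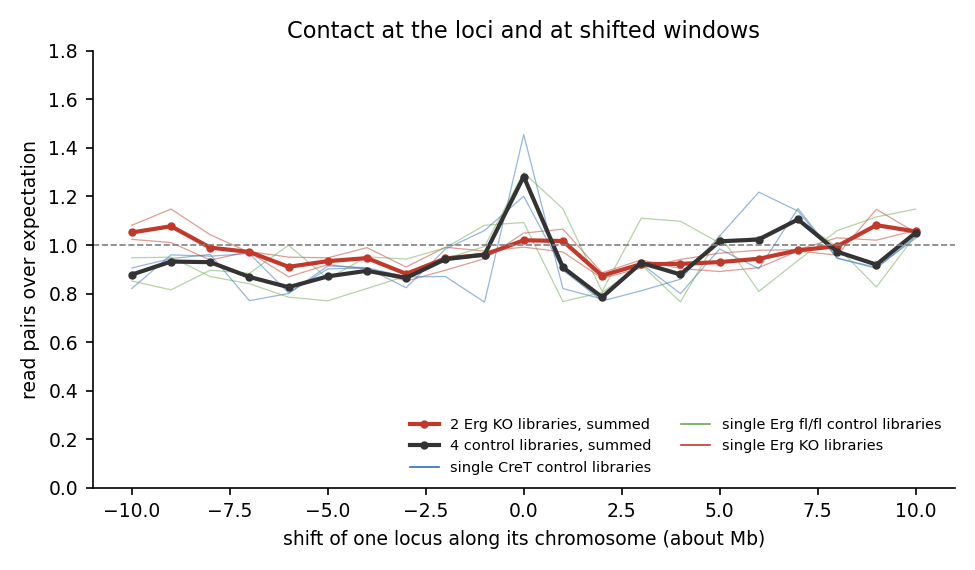
Read pairs over expectation (y axis) for the 14 locus pairs when 1 locus is moved along its chromosome by the distance on the x axis (about Mb; 0 is the locus itself), as thick lines for the summed Erg KO and control libraries and thin lines for single libraries. The control line rises to 1.28 at 0 and stays at or below 1.11 elsewhere, and the Erg KO line is at 1.02 at 0, within its shifted range of 0.874 to 1.08.

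Igh to Igk, the heavy chain locus with the main light chain locus of the mouse, held the most contacts, 256 read pairs over 957 bin pairs. The counts were 48 and 43 in Erg KO, 58 and 50 in the CreT control and 39 and 18 in the Erg fl/fl control. Divided by the expectation they were 1.19, 0.998, 1.62, 1.30, 1.51 and 0.966 in the same order. The lowest value was thus in a control, Erg fl/fl control replicate 2, the library with the fewest read pairs, and the groups overlapped. The summed ratio was 1.27 (1.12 to 1.43), with 1.09 (0.877 to 1.34) in Erg KO and 1.39 (1.19 to 1.62) in the controls, and the log2 difference was -0.28 (exact permutation p = 0.333). Among 538663 trans pairs of tiled blocks of 29 and 33 bins, 18.3% were at or above 1.27, and 5% to 95% of them ranged from 0.565 to 1.56. The height of this pair was therefore within the common range for block pairs of its size.

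Of the other immunoglobulin pairs, Igk to Igl, the light chain loci, held 36 read pairs at a ratio of 1.55 (1.09 to 2.15), which 9.44% of block pairs of the same size reached. Library values ran from 0.618 (Erg KO replicate 2) to 2.24 (CreT control replicate 1). Igh to Igl held 37 read pairs at 1.16 (0.816 to 1.60), and its lowest and highest libraries, 0.646 and 1.75, were both Erg KO.

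Igh to Tcra/Tcrd was the largest pair that joins the lineages, with 150 read pairs. Its ratios were 1.28 and 1.06 in Erg KO, 1.52 and 1.04 in the CreT control and 1.23 and 1.34 in the Erg fl/fl control, with a sum of 1.23 (1.04 to 1.44). Among block pairs of the same size 23.1% were as high. When Tcra/Tcrd was kept and Igh replaced by each of 767 tiled blocks of 29 bins on other chromosomes, 2.61% were as high, and when Igh was kept and Tcra/Tcrd replaced, 19.5% of 1495 blocks of 15 bins were as high. With the first or second locus kept, the shares were 12.6% and 1.76% for Igk to Igl and 1.86% and 1.57% for Igl to Tcra/Tcrd. They were 2.73% and 2.35% for Tcrb to Tcrg, 14.1% and 24.2% for Igh to Igk, and at least 16.4% for the remaining pairs. Igk to Tcra/Tcrd (84 read pairs) stood lower, at 0.949 (0.757 to 1.18), and Igh to Tcrb (62 read pairs) at 0.927 (0.711 to 1.19). Igh to Tcrg (34 read pairs) was at 1.32 and Igk to Tcrg (23 read pairs) at 1.23, both with intervals that include 1.

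The pairs of small loci rested on few read pairs. Igl to Tcra/Tcrd had 24, a ratio of 1.72 (1.10 to 2.56), and its counts were 1 and 4 in Erg KO, 5 and 9 in the CreT control and 5 and 0 in the Erg fl/fl control. Those 6 counts overlapped between groups. Tcrb to Tcrg had 13 for 6.21 expected, a ratio of 2.09 (1.12 to 3.58), with counts of 2 and 1 in Erg KO, 3 and 4 in the CreT control and 2 and 1 in the Erg fl/fl control. Its ratios were 1.45 and 0.744 in Erg KO and 2.09 to 3.43 in the controls and did not overlap (log2 difference -0.99, exact permutation p = 0.0667), yet the counts of both Erg fl/fl libraries equalled those of Erg KO. With only bins that lie at least 50% in the locus, the ratio was 0.667 in Erg KO and 1.54 in the controls and the libraries overlapped (-0.54, exact permutation p = 0.533). It was 1 of the 14 pairs with Erg KO below all controls, and no pair had Erg KO above all controls. Among block pairs of the size of Igh to Igk 8.72% had Erg KO below all controls, and 3.06% of those of the size of Tcrb to Tcrg did, so 1 in 14 was near the background. Tcra/Tcrd to Tcrb (25 read pairs, 0.853), Tcra/Tcrd to Tcrg (9, 0.797), Igl to Tcrb (7, 0.914) and Igl to Tcrg (3, 1.01) all had intervals that include 1.

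**Figure D3:**
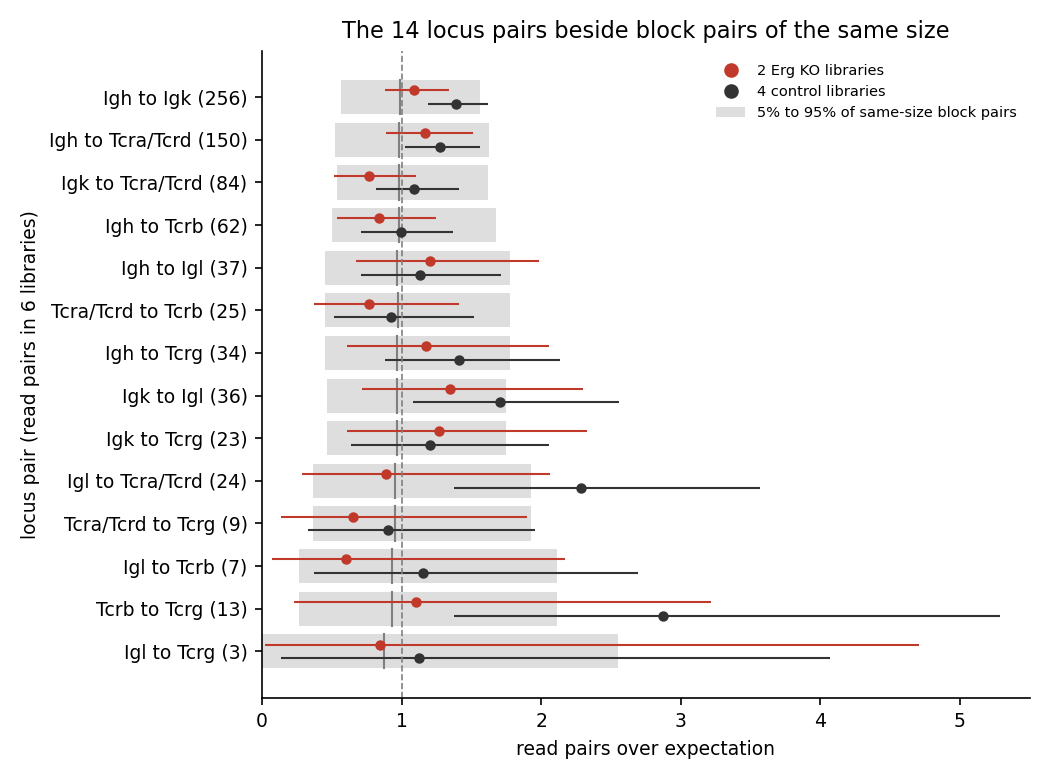
Summed read pairs over expectation (x axis) for each of the 14 locus pairs, in the 2 Erg KO libraries (red) and the 4 controls (black) with 95% exact Poisson intervals, over grey bars that span 5% to 95% of tiled block pairs of the same numbers of bins, whose median is the grey line. Igh to Igk is at 1.09 and 1.39 within its bar of 0.565 to 1.56, and the control values of Igl to Tcra/Tcrd (2.29) and Tcrb to Tcrg (2.87) lie beyond theirs.

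To test the pairs beside the rest of the genome, the autosomes were tiled into 797 blocks, each locus being a block, and all trans block pairs with at least 10 read pairs were fitted with edgeR (quasi-likelihood test, genotype and sex in the model, offsets from trans coverage, Benjamini-Hochberg adjustment). Of 299849 block pairs, 1725 (0.575%) passed for Erg KO against both controls, 972 (0.324%) higher and 753 (0.251%) lower in Erg KO. With TMM on total trans read pairs 2595 were higher and 11294 lower, and with loess offsets 856 and 469. The count fell to 63 or 289 when Erg KO replicate 1 or 2 was left out, to 760 or 751 when CreT control replicate 1 or 2 was, and to 290 when replicate 2 of Erg fl/fl was. Against 1 control at a time 0.22% passed (CreT) and 0.208% (Erg fl/fl), and the 2 controls differed from each other in 0.00267%. Of the 14 locus pairs 11 had enough read pairs, and none passed in any of these comparisons. With the model and offsets above, none had an unadjusted p under 0.05 for Erg KO against both controls. Under other settings some did without passing the adjustment: 1 with TMM, 3 with loess offsets, and 2 each without Erg KO replicate 2 and without replicate 2 of Erg fl/fl. DESeq2 with the same model called 0 block pairs for Erg KO against both controls, of which 1952 had an unadjusted p under 0.05, and no locus pair was among the latter. In edgeR 37781 block pairs had an unadjusted p under 0.05, so DESeq2 was by far the stricter test here.

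For Igh to Igk the fitted log2 change was -0.21 (SE 0.20, 95% interval -0.61 to 0.19, edgeR adjusted p = 0.720), an interval that includes 0. With TMM it was -0.45 (unadjusted p = 0.0297, edgeR adjusted p = 0.223) and with loess offsets -0.46 (unadjusted p = 0.0282, edgeR adjusted p = 0.463). Igh to Tcra/Tcrd changed by -0.09 (SE 0.27, interval -0.61 to 0.43, edgeR adjusted p = 0.932), and by -0.62 with loess offsets (unadjusted p = 0.0200, edgeR adjusted p = 0.415). Igk to Tcra/Tcrd had -0.53 (SE 0.37, interval -1.26 to 0.19, edgeR adjusted p = 0.577), and -0.94 with loess offsets (unadjusted p = 0.0126, edgeR adjusted p = 0.356). Against the CreT control alone it had -0.85 (SE 0.43, unadjusted p = 0.0464, edgeR adjusted p = 0.478), the 1 value among the locus pairs with an unadjusted p under 0.05 in these comparisons with the offsets from trans coverage and all 6 libraries. For the remaining 8 pairs the intervals were wider, for example -2.64 to 0.47 for Igl to Tcra/Tcrd. Of the 11 fitted changes 10 were below 0, with Igk to Igl at -0.00 among them, and pairs that share a locus are not independent. The sign of several turned when 1 library was left out, among them Igh to Igk (0.08 without Erg KO replicate 1) and Igk to Tcra/Tcrd (0.26 without Erg KO replicate 1).

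Within Igh the contacts were divided by the VH segments that start in each bin. No difference between genotypes in a part of a locus could pass, since the exact permutation test goes no lower than 0.0667. The 16 distal VH bins, which hold the large VH1 family far from the J segments, held 291 read pairs with the other loci at a ratio of 1.22 (1.08 to 1.36), with 1.18 in Erg KO and 1.24 in the controls. The 6 middle VH bins held 112 read pairs at 1.25 (1.03 to 1.51), with 1.16 and 0.835 in Erg KO against 1.22 to 1.83 in the controls, so that Erg KO lay below all controls there. The 3 proximal VH bins (49 read pairs) were at 1.14 and the 4 bins of the 3′ end, which hold the constant regions, J and D segments (87 read pairs), at 1.13, and both intervals include 1. Towards Igk alone the distal VH bins had 145 read pairs at 1.35 (1.14 to 1.58), with library values of 1.35 and 1.23 in Erg KO and 1.25 to 1.51 in the controls. Summed over libraries this was 1.29 in Erg KO and 1.39 in the controls, and the libraries overlapped. The middle VH bins had 0.768 in Erg KO (13 read pairs) and 1.37 in the controls (32 read pairs), and their library values overlapped.

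At the other loci, bins with a J or C segment were set beside those with V segments only. The 32 V bins of Igk were at 1.20 (382 read pairs, 1.08 to 1.33) and its 1 bin with J segments and the constant region at 1.18 (17 read pairs, 0.689 to 1.89). At Tcra/Tcrd the 13 V bins were at 1.15 (242 read pairs) and the 2 bins with J and C segments at 0.922 (50 read pairs), the latter with 0.654 and 0.681 in Erg KO against 1.02 to 1.28 in the controls. The 3 bins of Igl all hold J or C segments and were at 1.34 (107 read pairs, 1.10 to 1.62). At Tcrb the 4 V bins were at 0.905 (54 read pairs) and the 1 bin with J and C segments at 1.17 (16 read pairs, 0.669 to 1.90). At Tcrg the V bin was at 1.62 (37 read pairs, 1.14 to 2.23) and the 2 bins with J and C segments at 1.07 (45 read pairs, 0.778 to 1.43). The bins with J segments thus had lower ratios than the V bins at Igk, Tcra/Tcrd and Tcrg and a higher one at Tcrb, with intervals that overlap at each locus. Erg KO lay below all controls in 5 of the 14 parts of the loci and above them in none. These were the middle VH bins, both parts of Tcra/Tcrd, the V bins of Tcrb (0.697 and 0.614 against 0.864 to 1.34) and the J and C bins of Tcrg (0.826 and 0.930 against 1.05 to 1.43). The V bins of Tcra/Tcrd were barely apart, at 1.012 and 1.022 in Erg KO against 1.028 to 1.466 in the controls. The parts share partner loci and divide the same read pairs as the sum over all 14 locus pairs. That sum already had Erg KO below all controls, so the parts are not separate cases. The share of same-sized regions elsewhere with Erg KO below all controls was not computed for them, so the count is a description only.

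One value of Igk stood far outside all others. Its second bin, chr6:67599997-67699998, had 439 read pairs with the window chr4:145600217-147599538, where 3.58 were expected, a ratio of 123. By library this ratio was 89.3 and 115 in Erg KO, 120 and 142 in the CreT control and 147 and 154 in the Erg fl/fl control, so it was present in each library. The window holds 12 protein-coding gene starts, 10 of them zinc-finger genes such as Zfp980 and Zfp987, and it took 6.25% of all trans contacts of that bin. The same Igk bin met the 2 windows before it on chromosome 4 at 27.6 and 27.7 times the expectation. A further Igk bin, chr6:68300086-68399870, met the zinc-finger window at 21.1 (55 read pairs), and the other 31 bins of Igk had at most 7 read pairs with it. None of the other 89 bins of the loci had a contact of at least 20 read pairs and 20 times the expectation with any window of 10 bins in trans. What these 2 bins share with chromosome 4 was not tested, nor was whether read pairs are placed correctly there, so these are read pairs as mapped by the authors. Without them the ratio over all 14 locus pairs was 1.02 in Erg KO and 1.28 in the controls, and Igh to Igk was 1.08 and 1.39.

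**Figure D4:**
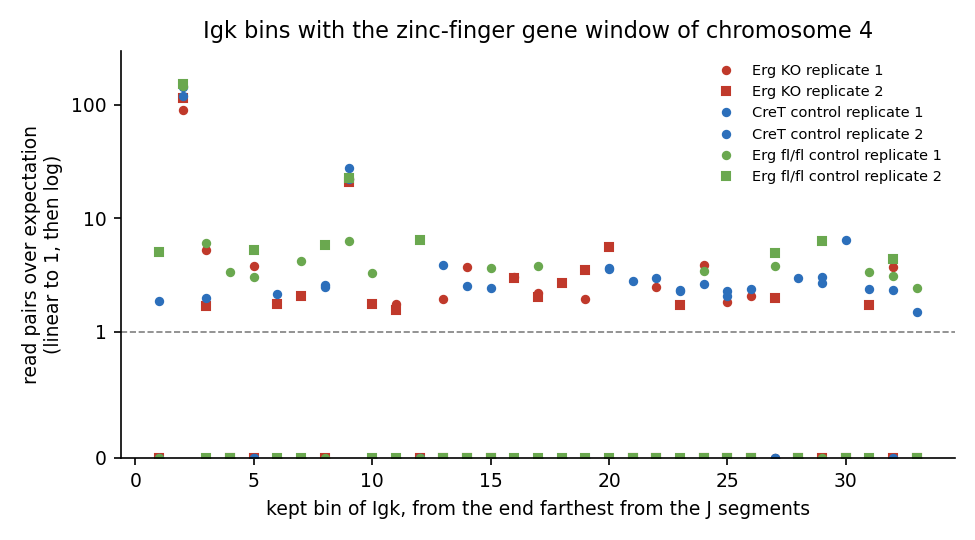
Read pairs over expectation (y axis, linear up to 1 and logarithmic above) between each kept bin of Igk (x axis, in order along the chromosome; the last bin holds the J segments) and the zinc-finger gene window of chromosome 4, 1 point per library. Bin 2 is at 89.3 to 154 and bin 9 at 6.29 to 27.5, while single read pairs put the other bins at 0 or a few times the expectation.

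The block with the zinc-finger genes was also the highest for Igk as a whole. Of the tiled blocks of 30 bins on other chromosomes, the top 3 for Igk were chr4:144599870-148600069, which holds the zinc-finger genes, at a mean of 3.76 ± 0.497 (SD, n = 6), its neighbour chr4:141500257-144599873 at 1.79 ± 0.196, and chr4:49100157-52099442 at 1.72 ± 0.331. For Igh the top 3 all lay on chromosome 8, in blocks with 1, 1 and 8 protein-coding gene starts against a median of 17 over all blocks. They were chr8:97399954-100399838, with the cadherin gene Cdh8 as its only protein-coding start, at 1.91 ± 0.526, chr8:100399835-103399983, with the cadherin gene Cdh11, at 1.90 ± 0.694, and chr8:112399439-115399762 at 1.73 ± 0.549. No antigen receptor locus was in these blocks. Igh lies 4.12 Mb from the end of chromosome 12.

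These 3 Igh blocks on chromosome 8 were higher in Erg KO by edgeR. The Cdh8 block stood at 2.38 in Erg KO and 1.65 in the controls (log2 change 0.65, SE 0.16, edgeR adjusted p = 0.0251), and the Cdh11 block at 2.52 and 1.67 (0.80, SE 0.16, edgeR adjusted p = 0.00124), with overlapping libraries in both. Of 759 block pairs that hold Igh, 21 passed (2.77%, against the 0.575% of all block pairs), 7 higher and 14 lower in Erg KO. The libraries of the groups did not overlap in 3 of the 7 higher and 11 of the 14 lower ones. How the share of calls varies among single blocks outside the loci was not computed. The 7 higher ones held a median of 8 protein-coding gene starts and the 14 lower ones 48.5, against 17 over all blocks. Of the higher ones 6 lay on chromosome 8, and of the lower ones 5 lay on chromosome 11 and 3 on chromosome 4. Some of these blocks adjoin, so the 21 are not separate cases and the medians rest on few chromosomes. Those with the largest falls by fitted log2 change were chr11:96299938-99299825, which holds part of the Hoxb cluster of body-axis genes, at 0.533 in Erg KO and 1.01 in the controls (-1.06, SE 0.18, edgeR adjusted p = 2.12e-05), and chr4:148600066-151600251 at 0.749 and 1.25 (-0.997, edgeR adjusted p = 2.63e-05). The block that ends with Ebf1, which encodes a transcription factor that sets the B lineage, was also lower with Igh, at 0.803 against 1.23 (-0.77, SE 0.19, edgeR adjusted p = 0.0251). Igk had 2 calls of 747, Tcra/Tcrd 1 of 757, and Igl, Tcrb and Tcrg none. The Igh calls depended on single libraries: with Erg KO replicate 1 or 2 left out 0 or 4 passed, with replicate 2 of Erg fl/fl left out 4, and with replicate 1 of CreT left out 7, and DESeq2 called none of the 759, of which 24 had an unadjusted p under 0.05. In edgeR with all libraries 148 of the 759 had one. Each fit with a library left out keeps a single library in that group, so a loss of calls cannot be told apart from a weaker test. Without either of the 2 male libraries the sex term takes up the other one. All 21 kept their direction with each library left out in turn and in DESeq2. They also did so under TMM and loess offsets, where 19 and 18 of them passed again. Among all block pairs of Igh that passed, the balance moved with the scaling, to 8 higher and 114 lower with TMM on total trans read pairs and to 4 higher and 46 lower with loess offsets. The median log2 change over all block pairs was 0.02 with the offsets from trans coverage and with TMM.

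The loci were last set beside windows of 10 bins around genes of 3 lists, without a test. Over all 2341 such windows outside the loci, the summed contact of the 6 loci was 0.996 of the expectation, with 5% to 95% at 0.773 to 1.27. The 23 B-lineage genes came to 0.965 (0.925 in Erg KO, 0.992 in the controls), the 12 T-lineage genes to 0.834 (0.820 and 0.844) and the 12 housekeeping genes to 0.877 (0.857 and 0.890). The contacts of the loci with one another, at 1.17, were above each list's sum but within the 0.773 to 1.27 of all windows. The gene windows were not matched to the loci in size or gene density. The highest single windows were that of Rag1 and Rag2, the recombinase genes, which share a window, at 1.31 (1.35 in Erg KO, 1.28 in the controls), and that of Ebf1 at 1.31 (1.10 and 1.47). The lowest was that of Notch1, the receptor that directs T-cell fate, at 0.632. Erg KO lay below all controls for 4 B-lineage windows (Ebf1, Bach2, Lef1 and the B-cell receptor gene Cd79b), 1 T-lineage window (Notch1) and 2 housekeeping windows (Ppia and Polr2a), and above all controls for none. Over all windows 7.22% had Erg KO below and 7.73% above all controls. The B-lineage list thus had 17.4% below, and in a list of 23 windows, some of which share bins, this is a description only.

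**Figure D5:**
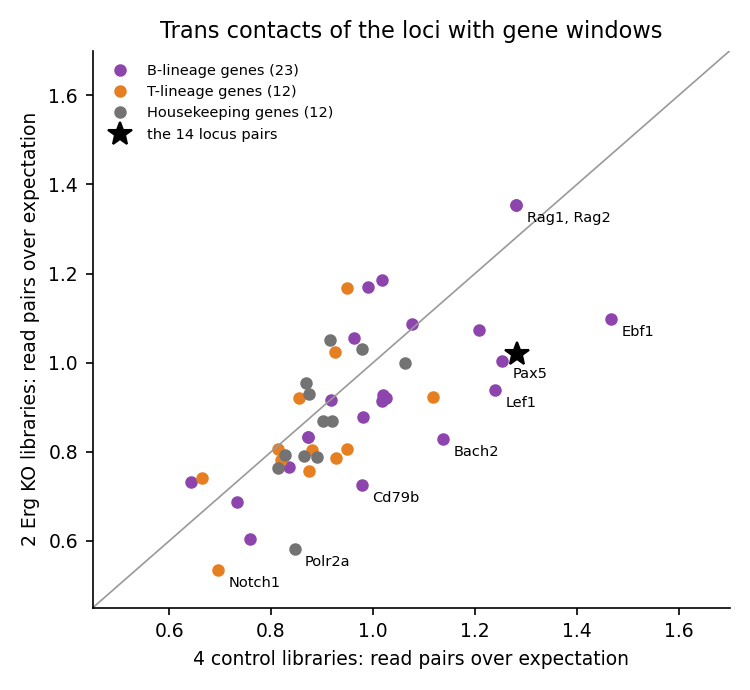
Summed read pairs over expectation between the 6 loci and each gene's window of 10 bins, in the 4 controls (x axis) and the 2 Erg KO libraries (y axis), coloured by list, with the line of equal values. The star marks the 14 locus pairs (1.28 and 1.02), which lie below the line near Pax5, as does Ebf1 (1.47 and 1.10), while Rag1 and Rag2 lie above it (1.28 and 1.35).

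Gene density gives a scale for these ratios. Among trans pairs of 30-bin blocks, those that join 2 blocks of low gene density (up to 11.3 protein-coding gene starts) came to 1.25 (1.21 in Erg KO, 1.29 in the controls), those of 2 blocks of high density (over 26 starts) to 1.18, and those of a low with a high block to 0.802. Counted in kept bins, protein-coding starts other than receptor segments came to 4 in 29 bins of Igh, 2 in 33 of Igk and none in 3 of Igl. They came to 7 in 15 bins of Tcra/Tcrd, 15 in 8 of Tcrb and 1 in 3 of Tcrg. All kept autosomal bins held 20328 in 23651, so Tcrb was denser than the genome and the loci were not all gene-poor. The sum over the 14 locus pairs, 1.17, was below the 1.25 of gene-poor blocks with each other, a class that does not cover all the loci. The part of gene density in that sum was not tested.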

How the data were processed

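In situ Hi-C was measured in 6 libraries. Per the study's methods the authors aligned read pairs to mm10 with diffHic, marked duplicates, removed ligation artefacts, and deposited raw counts of read pairs per pair of bins of about 100 kb, cut at GATC sites. These deposited counts were used unchanged, and no column of per-sample values was left unused (0 columns). Members and lists were chosen with earlier results of these data known.

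Autosomal bins with 0.3 to 3 times the median total contact were kept (23651 of 24067). The expected count of a trans bin pair was the product of the trans totals of both bins in that library, scaled to the library's trans total; log2 ratios used a pseudocount of 0.5. Intervals are 95% exact Poisson intervals and cover counting error only. Differences of single values, 2 Erg KO libraries minus 4 controls, were tested with a two-sided exact permutation test over all 15 assignments. Same-size blocks were up to 1000 tiled blocks per side. Trans block pairs (30 bins, loci as blocks, at least 10 read pairs over 6 libraries) were fitted with edgeR 4.0.16 (R 4.3.3; quasi-likelihood test, genotype and sex, Benjamini-Hochberg, threshold 0.05), and DESeq2 1.42.0 as an alternative. The methods' filter on bin pairs over trans background was not applied, since it removes trans contacts. Blocks named were the 3 highest for Igh and Igk; bin pairs were to be named with at least 5 read pairs, which none had, and called blocks of Igh and the chromosome 4 windows were named after their values were seen. Gene windows are given without a test, and parts of loci as a description, with the permutation p as a limit. Both the expectation and edgeR were tested on simulated data. Alternatives were other expectations, coverage filters, locus edges, block sizes, offsets, covariates and leaving out each library.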

Additional observations from a re-analysis of the deposited data

How the results depend on the processing

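Over all 14 locus pairs, the difference of Erg KO minus controls ranged from -0.36 to -0.23 on the log2 scale when each library was left out in turn, and Erg KO lay below all controls in each of those 6 settings. The ranges were -0.37 to -0.14 for Ig to Ig, -0.37 to -0.24 for Ig to Tcr and -1.13 to -0.04 for Tcr to Tcr pairs. Other expectations, coverage filters and locus edges kept these 4 directions. Relative to the flanks the 4 differences were -0.22, -0.13, -0.24 and -0.47, and Erg KO lay below all controls only for Ig to Tcr pairs (exact permutation p = 0.133). Settings chosen after seeing the data were leaving out Igh to Igk, leaving out the Igk bins with a point contact, and dividing by each library's spread. Without Igh to Igk, Ig to Ig came to -0.05.

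Single pairs changed sign when 1 library was left out, with ranges of -0.65 to 0.68 for Igh to Igl, -0.251 to 0.00974 for Igh to Tcra/Tcrd, -0.72 to 0.15 for Igh to Tcrg, -1.23 to 0.37 for Igk to Igl, -1.01 to 0.56 for Igl to Tcrg and -0.70 to 0.82 for Tcra/Tcrd to Tcrb. With bins at 0.5 to 2 times the median trans coverage Igh to Igl was -0.00807 (0.01 with all kept bins), with bins at least 50% in the locus Tcra/Tcrd to Tcrb was -0.40 (0.25 otherwise) and over the spread -0.82, and without the Igk bins with a point contact Igk to Tcrg was -0.0138.

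The edgeR log2 changes ranged, with 1 library left out, from -0.382 to 0.0379 for Igh to Tcrb, -2.19 to 2.34 for Tcra/Tcrd to Tcrb, -0.322 to 0.0751 for Igh to Igk, -0.21 to 0.25 for Igk to Tcrg, -0.98 to 0.26 for Igk to Tcra/Tcrd, -1.36 to 0.37 for Igk to Igl, -0.353 to 0.0515 for Igh to Tcra/Tcrd, -0.82 to 0.78 for Igh to Igl and -2.75 to 4.67 for Igl to Tcra/Tcrd. Igk to Tcrg was -0.0708 with TMM and -0.0508 with loess offsets, and Igh to Igl was 0.0952 without the sex term.

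No locus pair passed in any of these settings. Counts of called block pairs moved. In the order Erg KO against both controls, against CreT, against Erg fl/fl, and control against control, TMM gave 13889, 9332, 6904 and 17, blocks of 20 bins 296, 237, 76 and 3, and DESeq2 0, 2, 0 and 0. Without the sex term the last 2 were 376 and 0, and loess offsets gave 19 between the controls. Leaving out 1 library gave 63 to 1532, 15 to 481, 5 to 381 and 0 to 3. The cause was not tested.

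Deviations of same-numbered libraries from their group means correlated at -0.00392, 0.00720 and -0.00851. Counting error in single block pairs lowers such correlations, so they do not settle whether replicate numbers pair the libraries. With the replicate block the counts were 754, 179, 382 and 1, and Igh to Igl changed by 0.20. Leaving out the top bin pairs gave no value, since no bin pair held 5 read pairs. Depth limits the single pairs, of which several held fewer than 30 read pairs.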
